A study of Mus musculus with 185 samples.

Results

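The 10 genes described here encode chemokines and cytokines made by fibroblasts: Cxcl1, Cxcl12, Cxcl14, Cxcl16, Ccl2, Ccl7, Ccl11, Il6, Il33 and Csf1. They were chosen by name, and all 10 were among the 17171 genes of the deposited table. Their mRNA is followed across 185 single cells of the mouse heart that the labels place in 9 classes.

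All mice were adults of about 5 months on a C57BL/6 background, and cells that carried CD31 or CD45, surface proteins of endothelial and blood cells, were removed by sorting. Lineage tracing used mice in which a tamoxifen-inducible Cre (MerCreMer, MCM) was inserted at the Postn or the Tcf21 gene and switched on an eGFP reporter, as PostnMCM/+; R26-eGFP and Tcf21MCM/+; R26-eGFP, so traced mice had 1 disrupted copy of the gene that drove Cre. Postn encodes periostin, a matrix protein of activated fibroblasts, and Tcf21 encodes a transcription factor of resident cardiac fibroblasts. The 152 activated cells came from the infarct region after permanent ligation of the left coronary artery (myocardial infarction, MI). They comprised 27 Postn-traced cells, 24 Postn- cells and 6 untraced Postn+ cells in the capture Jul29, 44 Tcf21-traced cells and 19 untraced Postn+ cells in the capture Nov4, and 29 untraced scar cells and 3 untraced Postn+ cells in the capture Nov11. The 33 resident cells, all in the capture Jul24, comprised 17 Tcf21-traced cells, 12 Postn- cells, 3 Tcf21+ Postn+ cells and 1 Postn+ cell, and the sources describe them in different places as cells of uninjured hearts, of sham hearts or, for Postn- cells, of the remote region. The labels do not give the genotype of the untraced cells. The study's methods describe cells without eGFP as sorted from mice of either traced genotype. For the activated Postn- cells it names the Postn-traced line. Tamoxifen was given to switch on Cre, and the study dates the lineage-traced infarct cells to about a week after MI. Since the labels do not say which mouse a cell came from, a class of cells stands for 1 sample, differences were not tested, and SDs describe the spread between cells and nothing more.

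Chemokines are small secreted proteins that draw leukocytes along a gradient. CXC chemokines such as Cxcl1 act mainly on neutrophils through Cxcr2, and CC chemokines such as Ccl2 act on monocytes through Ccr2. Il6 signals through gp130, Il33 is an alarmin released from damaged cells, and Csf1 sustains macrophages. In the infarcted heart these ligands are known for recruiting and maintaining leukocytes during repair.

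Values are log2(TPM+1), where TPM is a transcript abundance scaled for transcript length and to the same total in each cell, and a gene was taken as detected above 5 TPM. The study gives an average read depth but not the number of reads of each cell, and the number of detected genes was used in its place. Its median was 2264 in resident Tcf21-traced cells, 2092 in resident Postn- cells, 2342 in activated Postn- cells, 3643 in Postn-traced cells, 3134 in activated Tcf21-traced cells and 3177 in scar cells. A value of 0 does not show that a cell lacked the mRNA, since Gapdh was listed at 0 in 9 of 185 cells and Eef1a1 in 1. The capture Nov11 held 7 shallow cells, with fewer than 50% of the median number of detected genes of their capture, and 6 of them were scar cells. No pair of cells held identical values.

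Fibroblast markers were found in most cells. At least 3 of 6 fibroblast markers were detected in 180 of 185 cells, and the most abundant, Dcn, was detected in all 185. No cell had 3 of the 5 endothelial markers in the table, although Tek was detected in 47 cells. Only 2 of 6 lymphoid and 2 of 6 neutrophil genes were listed, so those lists could not reach 3. At least 3 markers were detected in 2 cells for the myeloid list, 2 for the pericyte list, 2 for the cardiomyocyte list, 1 for the epicardial list and 1 for the Schwann list. The smooth muscle list reached 3 genes in 22 cells, all of infarcts, led by Tagln, which myofibroblasts also express. Postn was above 5 TPM in all 27 Postn-traced cells, in 3 of 24 activated Postn- cells and in 3 of 12 resident Postn- cells.

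The 10 genes were expressed in a patchy manner. A cell had a median of 4 of them detected, with a range from 0 to 9, and the 3 cells with none were shallow cells of the scar class. The median was 5 in activated Tcf21-traced, untraced Postn+ and resident Postn- cells, and 3 in Postn-traced, activated Postn-, resident Tcf21-traced and scar cells. Within every class of 10 or more cells, each gene that was detected at all ranged from 0 in some cells to high values in others. Class means are ranked below among the 7 classes of 10 or more cells. The highest and lowest of them differed by less than the larger of their SDs for all 10 genes, so no neighbours in any order of classes were separated beyond the spread between cells.

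**Figure D1:**
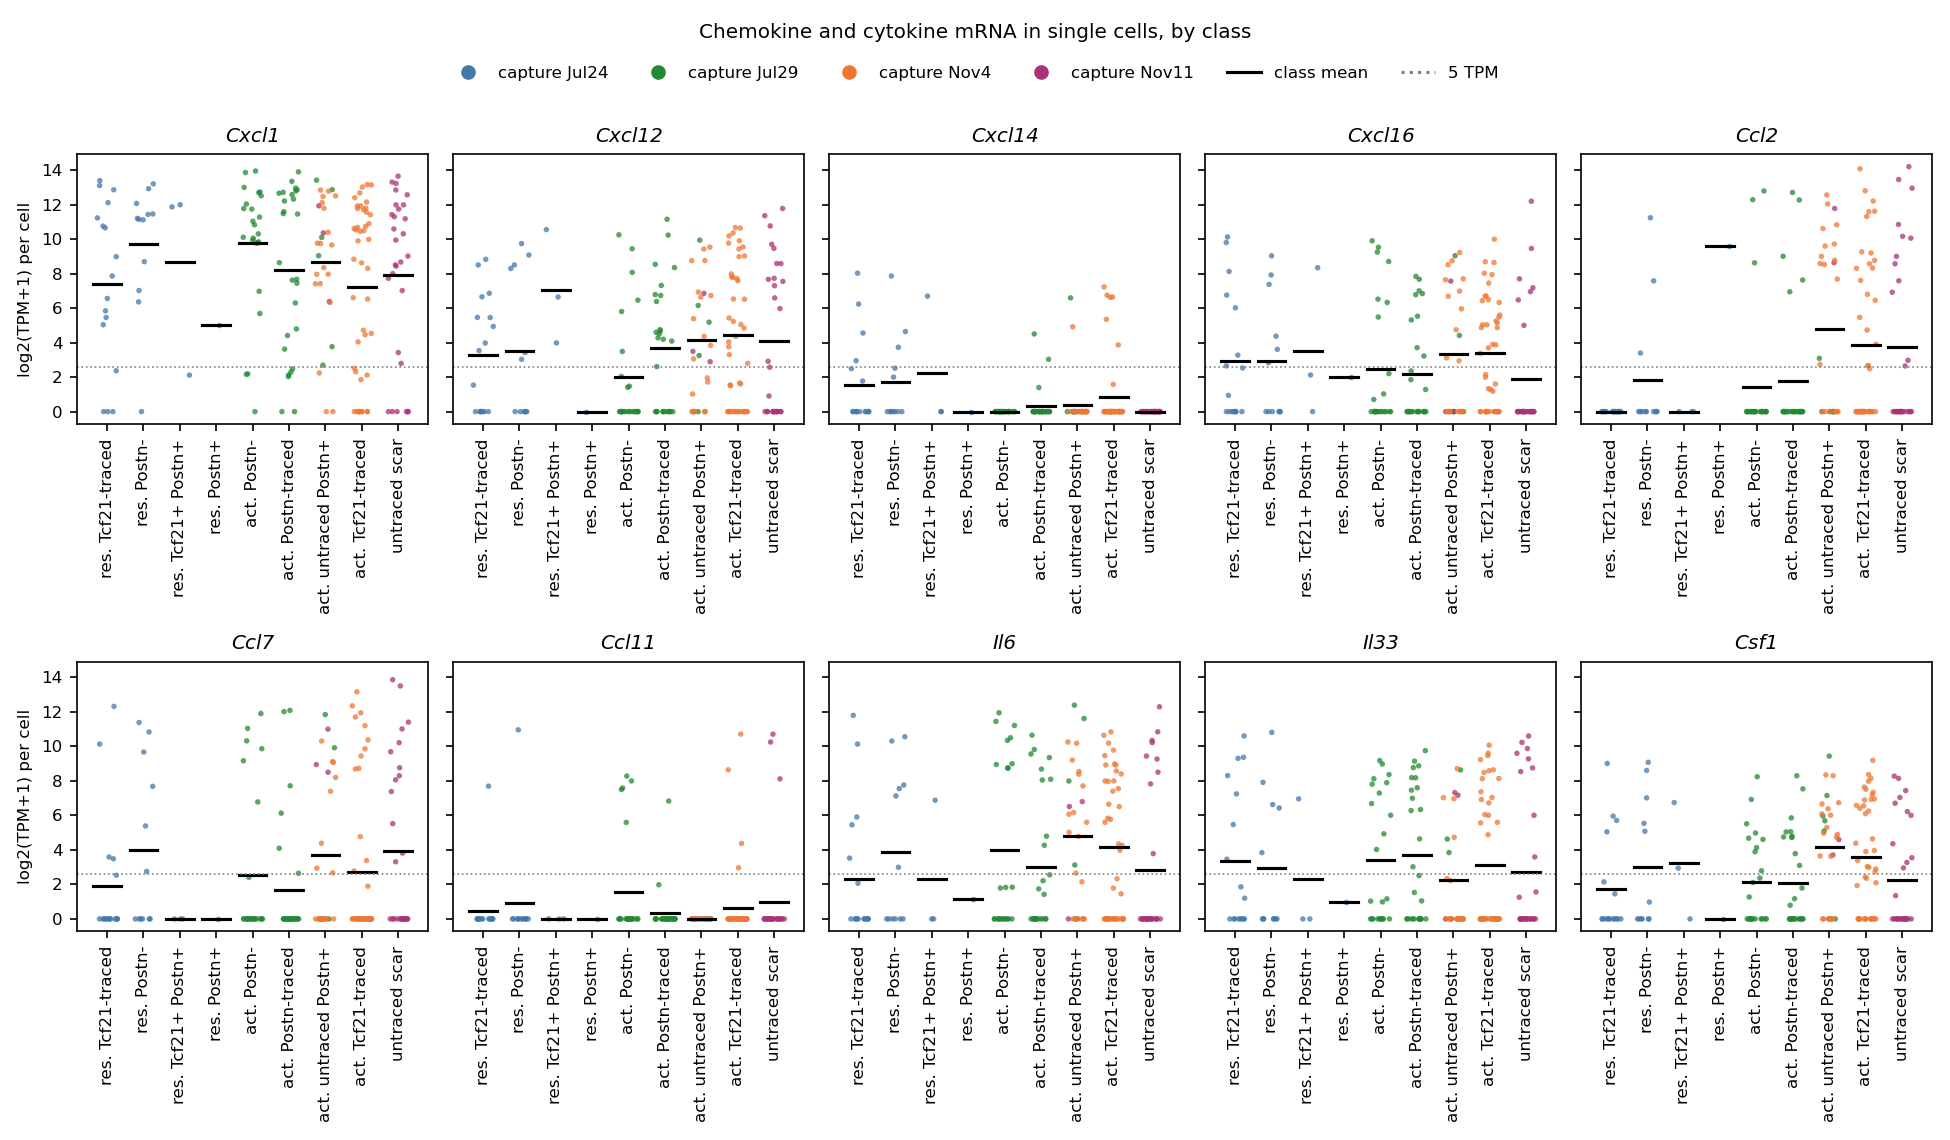
Each point is the log2(TPM+1) of 1 cell for 1 gene, placed by class on the horizontal axis and coloured by capture; black bars are class means and the dotted line is 5 TPM. Cells at 0 and cells at high values occur side by side in most classes, as for Cxcl1 in activated Tcf21-traced cells, from 0 to 13.16.

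Cxcl1 (GRCm38.p6 chr5:90891245-90893121), a ligand of Cxcr2 that attracts neutrophils, was the most widely detected of the 10. It was above 5 TPM in 148 of 185 cells (80%, exact 95% Clopper-Pearson interval 73.5% to 85.5%, which like all intervals here covers counting error only). Among the 182 cells with any of the 10 genes detected, Cxcl1 had the highest TPM of the 10 in 103 (56.6%). In activated Postn- cells it ranged from 0 to 13.95 with a median of 10.57, and its mean was 9.76 ± 3.75 (SD between cells, n = 24). In resident Postn- cells it ranged from 0 to 13.20 with a median of 11.18 (mean 9.72 ± 3.74, n = 12). These were the 2 highest class means. Untraced Postn+ cells followed at 8.65 ± 3.91 (n = 28), Postn-traced cells at 8.23 ± 4.72 (n = 27), scar cells at 7.92 ± 4.86 (n = 29), resident Tcf21-traced cells at 7.42 ± 4.75 (n = 17) and activated Tcf21-traced cells at 7.24 ± 4.90 (n = 44). Without the 6 shallow scar cells the scar mean was 9.55 ± 3.58 (n = 23), which places it next to the highest 2. All ranges overlapped. Cxcl1 was detected in 81.8% of the 33 cells of the resident capture and 79.6% of the 152 infarct cells, shares that lie within each other's intervals.

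Promoters were matched in RefSeq (GRCm38.p6) for 6 of the 10 genes: Cxcl1, Cxcl12, Cxcl14, Il6, Il33 and Csf1. The windows of Cxcl1, Il6 and Csf1 are shown because they hold a form of the kappaB motif bound by NF-kB. Its letters are GGGA and TTCC with any 2 bases between them. A further reason was that Cxcl1 and Il6 varied together between cells of each infarct capture, though not of the resident one. For Csf1 the mean Pearson r over the infarct captures was lower, at 0.06 with Cxcl1 and 0.18 with Il6. Both strands were searched over 250 bases before and 50 after the start site, and capitals mark the match, which in Cxcl1 is a pair of overlapping matches on opposite strands. Of 32851 promoters of the same length, 482 (1.47%) held this motif. The windows are chr5:90890995-90891294 (plus strand) for Cxcl1, chr5:30012864-30013163 (plus strand) for Il6 and chr3:107760420-107760719 (minus strand) for Csf1.
Cxcl1: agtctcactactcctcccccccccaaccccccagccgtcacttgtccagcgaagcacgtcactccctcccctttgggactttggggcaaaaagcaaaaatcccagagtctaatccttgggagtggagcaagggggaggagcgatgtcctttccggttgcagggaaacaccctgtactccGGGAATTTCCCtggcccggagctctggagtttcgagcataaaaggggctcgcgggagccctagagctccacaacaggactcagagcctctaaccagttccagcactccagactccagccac
Il6: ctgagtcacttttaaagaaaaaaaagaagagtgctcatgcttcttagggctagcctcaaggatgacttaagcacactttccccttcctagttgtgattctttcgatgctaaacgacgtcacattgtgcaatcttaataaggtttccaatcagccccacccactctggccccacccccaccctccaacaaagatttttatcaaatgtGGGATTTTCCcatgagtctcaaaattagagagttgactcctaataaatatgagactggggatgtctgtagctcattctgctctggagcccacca
Csf1: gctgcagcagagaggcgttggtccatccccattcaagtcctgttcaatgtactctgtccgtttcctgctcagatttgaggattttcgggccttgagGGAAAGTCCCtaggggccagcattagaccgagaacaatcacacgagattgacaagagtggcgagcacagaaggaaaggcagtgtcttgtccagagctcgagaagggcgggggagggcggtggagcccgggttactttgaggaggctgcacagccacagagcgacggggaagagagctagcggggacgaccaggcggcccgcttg
The match began at base -71 from the start site in Cxcl1, -44 in Il6 and -154 in Csf1. The Il6 window also held the AP-1 letters TGANTCA, found in 7.81% of promoters, and the C/EBP letters TTGCNNAA, found in 10.8%. A match is a description of the sequence and not a shown binding site. Whether the motif is related to the covariation was not tested, and no promoter was matched for Ccl2 or Ccl7.

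Cxcl12 (chr6:117168535-117181368), which retains leukocytes and progenitors through Cxcr4, was detected in 98 of 185 cells. Its lowest mean of the 7 classes was in activated Postn- cells, with a median of 0 and a highest cell of 10.25 (mean 2.02 ± 3.35, n = 24). Postn-traced cells of the same capture had a median of 4.19 and a highest cell of 11.15 (mean 3.67 ± 3.61, n = 27). The shares of cells above 5 TPM were 25% (interval 9.77% to 46.7%) and 59.3% (38.8% to 77.6%), and the intervals overlapped. Of the 7 classes, the highest mean was in activated Tcf21-traced cells at 4.44 ± 3.96 (n = 44), and the other classes of 10 or more cells lay between 3.28 and 4.14. Without its shallow cells the scar class was above them all, at 5.19 ± 4.36 (n = 23). Cxcl12 was thus low in the infarct cells that were selected as lacking Postn and detected in at least 48.3% of cells of each other class of 10 or more cells.

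Cxcl14 (chr13:56288643-56296811), a chemokine of epithelia and stroma whose receptor is unsettled, was rare. It was detected in 4 of 17 resident Tcf21-traced cells (23.5%, interval 6.81% to 49.9%), 3 of 12 resident Postn- cells (25%, 5.49% to 57.2%) and 1 of 3 resident Tcf21+ Postn+ cells. In the infarct it was detected in 10 of 152 cells (6.58%, 3.2% to 11.8%), of which 6 were Tcf21-traced. It was listed at 0 in all 24 activated Postn- cells (upper limit 14.2%) and all 29 scar cells (upper limit 11.9%). Resident cells are all of 1 capture, so that the resident state and the capture cannot be told apart.

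Cxcl16 (chr11:70454389-70459984), a membrane-bound ligand of Cxcr6 that can be shed by proteases, was detected in 74 of 185 cells. Its means over the 7 classes went from 1.90 ± 3.59 (n = 29) in scar cells to 3.39 ± 3.15 (n = 44) in activated Tcf21-traced cells. The scar class held both cells at 0, which included its median, and the highest Cxcl16 value of any cell, 12.20, which lay in 1 of the 7 shallow cells.

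Ccl2, Ccl7 and Ccl11 are neighbouring genes on chromosome 11 (GRCm38.p6 chr11:82035577-82037452, chr11:82045712-82047525 and chr11:82057832-82062955). Ccl2 and Ccl7 attract monocytes through Ccr2, and Ccl11 (eotaxin) attracts eosinophils through Ccr3.

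Ccl2 showed the widest spread of means over the 7 classes. It was listed at 0 in all 17 resident Tcf21-traced cells (upper limit 19.5%) and was detected in 20 of 44 activated Tcf21-traced cells (45.5%, interval 30.4% to 61.2%), where values ranged from 0 to 14.07 with a median of 0 (mean 3.84 ± 4.71). These intervals did not overlap, but the classes come from different captures. In cells with 2000 to 4000 detected genes the shares were 0 of 11 (upper limit 28.5%) and 8 of 28 (28.6%, 13.2% to 48.7%), and the intervals overlapped. In the capture Jul29 the share was 18.5% of Postn-traced cells (6.3% to 38.1%), 12.5% of Postn- cells (2.66% to 32.4%) and 1 of 6 untraced Postn+ cells (0.421% to 64.1%). In the capture Nov4 it was 63.2% of 19 untraced Postn+ cells (38.4% to 83.7%). The mean in untraced Postn+ cells was 0.51 ± 1.26 (n = 6) in Jul29 and 5.82 ± 4.97 (n = 19) in Nov4, and the intervals of these shares overlapped. Scar cells had Ccl2 in 12 of 29 cells, and resident Postn- cells in 3 of 12. In the 59 cells where it was detected, Ccl2 ranged from 2.65 to 14.20, the latter in a shallow scar cell, so that cells with high and with moderate levels both occurred.

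Ccl7 was detected in 61 of 185 cells, with a median of 9.12 in those cells. Over the 7 classes its means were highest in resident Postn- cells at 3.98 ± 4.73 (n = 12) and scar cells at 3.96 ± 4.97 (n = 29), and lowest in Postn-traced cells at 1.66 ± 3.60 (n = 27). The scar mean was 4.41 ± 4.85 (n = 23) without shallow cells, above that of resident Postn- cells. Unlike Ccl2, it was detected in 4 of 17 resident Tcf21-traced cells.

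Ccl11 was the rarest of the 10, in 15 of 185 cells. Of these, 5 were among the 24 activated Postn- cells (20.8%, interval 7.13% to 42.2%), 4 among 44 activated Tcf21-traced cells, 3 among 29 scar cells, and 1 each among Postn-traced, resident Tcf21-traced and resident Postn- cells. It was listed at 0 in all 28 untraced Postn+ cells (upper limit 12.3%). Across cells, Ccl11 and Postn had r = -0.29 in the capture Jul29 (57 cells), -0.46 in Nov4 (63 cells) and -0.03 in Nov11 (32 cells), with Ccl11 detected in only 6, 4 and 3 cells.

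Il6 (chr5:30013114-30019975), which acts through Il6ra and gp130, was detected in 80 of 185 cells. It was above 5 TPM in 18 of 28 untraced Postn+ cells (64.3%, interval 44.1% to 81.4%), 23 of 44 activated Tcf21-traced cells (52.3%, 36.7% to 67.5%) and 6 of 12 resident Postn- cells. The lowest mean of the 7 classes was in resident Tcf21-traced cells, from 0 to 11.80 with a median of 0 (mean 2.29 ± 3.83, n = 17), and the highest in untraced Postn+ cells, from 0 to 12.39 with a median of 5.31 (mean 4.83 ± 4.13, n = 28). Il33 (chr19:29925113-29960718), an alarmin that signals through Il1rl1, had means over the 7 classes from 2.27 ± 3.21 (n = 28) in untraced Postn+ cells to 3.72 ± 3.81 (n = 27) in Postn-traced cells. It was detected in 41.2% of resident Tcf21-traced and 40.9% of activated Tcf21-traced cells.

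Csf1 (chr3:107741048-107760469), the main growth factor of macrophages, was detected in 86 of 185 cells. It was above 5 TPM in 20 of 28 untraced Postn+ cells (71.4%, interval 51.3% to 86.8%), 25 of 44 activated Tcf21-traced cells (56.8%, 41% to 71.7%) and 4 of 17 resident Tcf21-traced cells (23.5%, 6.81% to 49.9%). In untraced Postn+ cells the share was 5 of 6 in Jul29, 13 of 19 in Nov4 and 2 of 3 in Nov11, so that this class had Csf1 in most cells of each capture.

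**Figure D2:**
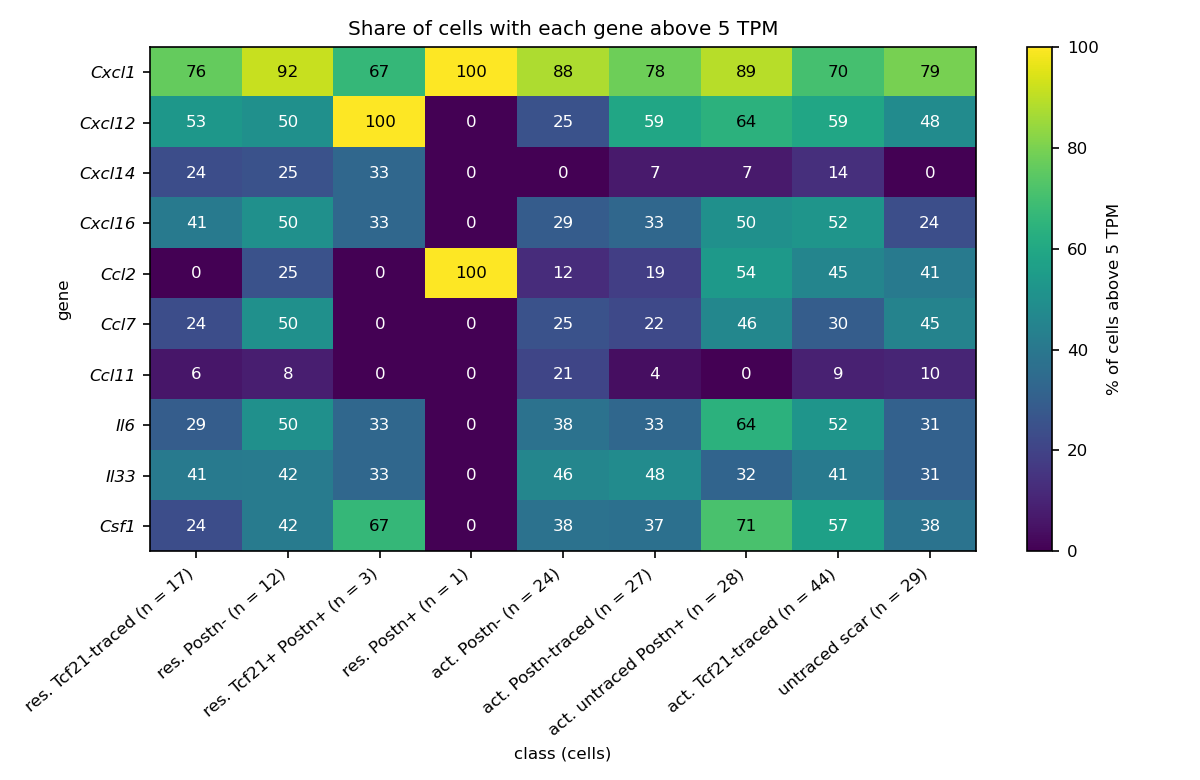
Colour and number give the percentage of cells above 5 TPM for each gene (rows) in each class (columns, with the number of cells). Cxcl1 fills its row, Cxcl14 and Ccl11 are nearly empty, and Ccl2 goes from 0% in resident Tcf21-traced cells to 45.5% in activated Tcf21-traced cells; the 2 resident Postn+ classes hold only 3 cells and 1 cell.

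Class means were then compared in 8 pairs, of which 3 lay within a capture. A difference of more than 1 log2 unit was counted as higher or lower, and each count was read against the same share over the 15733 genes detected in at least 1 cell. Of the 80 differences, 30 passed 1 log2 unit, and none was larger than the larger SD between cells of its classes. Of the 30, 15 kept their sign under the 8 other settings tried in every comparison and 1, Csf1 in activated Tcf21-traced against Postn-traced cells, also stayed past 1. A difference of 0 was counted as not keeping the sign. Most of the rest did not turn their sign but were 0 with medians over cells. Pairs that share a class are not independent of each other.

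The first comparison asked how infarct cells of the periostin lineage differ from Postn- cells of the same capture. Cxcl12 was higher in Postn-traced cells by 1.66 log2 units, and Cxcl1 (-1.53), Ccl11 (-1.21) and Il6 (-1.01) were lower. That is 1 of 10 genes higher, against 16.7% of all genes, and 3 of 10 lower, against 2.35%. Among the 4028 genes detected in at least 25% of cells, 42.3% were higher and 5.86% lower. Postn-traced cells had more detected genes, and in cells with 2000 to 4000 detected genes Cxcl12 was again the 1 gene higher, while Cxcl1, Ccl7, Ccl11 and Il6 were lower. On the scale of log2 of the mean TPM, however, Cxcl12 (0.85) and Cxcl1 (-0.0977) did not pass 1 log2 unit, Cxcl14 was higher, and Cxcl16, Ccl11 and Il6 were lower.

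Within the capture Nov4, untraced Postn+ cells were compared with Tcf21-traced cells. Ccl2 (1.99) and Cxcl1 (1.28) were higher and Il33 (-1.42) was lower in the untraced cells. The counts were 2 of 10 higher, against 5.05% of all genes, and 1 of 10 lower, against 3.34% (11.4% and 9.38% of widely detected genes). Without cells that held 3 markers of another type, which were mostly cells with smooth muscle genes, none of these 3 differences passed 1 log2 unit. With the log2 of the mean TPM, Cxcl1 differed by 0.15 and Ccl2 by -0.0453, so the direction of Ccl2 depended on the scale of averaging. Within the capture Jul24, resident Tcf21-traced cells had lower Cxcl1 (-2.29), Ccl7 (-2.09), Ccl2 (-1.85), Il6 (-1.57) and Csf1 (-1.30) than resident Postn- cells. Thus 0 of 10 were higher, against 8.65%, and 5 of 10 lower, against 6.55% (23.3% and 14.6% of widely detected genes). The same 5 were lower without the 1 resident Postn- cell that held 3 myeloid markers, including Lyz2. When classes were averaged as TPM, Cxcl1 (-0.36), Ccl7 (-0.33) and Il6 (0.0268) did not pass 1 log2 unit, and Cxcl12, Ccl2, Ccl11 and Csf1 were lower.

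The other 5 comparisons cross captures, and class and capture cannot be told apart in them. Activated against resident Tcf21-traced cells asked what changes in traced resident fibroblasts after MI. Ccl2 (3.84), Il6 (1.85), Csf1 (1.84) and Cxcl12 (1.16) were higher, which is 4 of 10, against 16.9% of all genes and 47.7% of those detected in at least 25% of cells. With the log2 of the mean TPM, Il6 differed by -0.33 and Csf1 by 0.81. None was lower, against 2.65%. Cxcl1 differed by -0.19, well within the spread between cells. The count of 4 higher is therefore near the share among widely detected genes.

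Activated Postn- cells were compared with resident Postn- cells in the same way. Cxcl14 (-1.73), Cxcl12 (-1.49) and Ccl7 (-1.41) were lower, 3 of 10 against 5.2%, and 0 of 10 were higher, against 10.3%. Of widely detected genes, 10.9% were lower and 29% higher. Averaging as TPM gave Cxcl12 -0.83 and Ccl7 -0.33. Postn-traced against resident Tcf21-traced cells gave 1 of 10 higher, Ccl2 (1.80), against 20%, and 1 of 10 lower, Cxcl14 (-1.20), against 2.51%, with 49.8% and 5.78% among widely detected genes. In cells with 2000 to 4000 genes Ccl2 was again higher and Cxcl14 did not pass 1 log2 unit.

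The traced infarct classes were also compared with each other. Ccl2 (2.04), Csf1 (1.47), Cxcl16 (1.19), Il6 (1.13) and Ccl7 (1.08) were higher in Tcf21-traced than in Postn-traced cells, 5 of 10 against 3.43%, and none was lower, against 6.14%. The shares of widely detected genes were 9.68% and 14.5%. Cxcl1, at -0.997, was just short of being counted as lower. It was lower with a pseudocount of 0.1, with each cell centred on its median detected gene and in cells with 2000 to 4000 genes. Il33 was lower with medians, with a pseudocount of 0.1 and without cells holding 3 markers of another type. Ccl7 and Il6 did not pass 1 log2 unit when classes were averaged as TPM, nor did Ccl2 and Ccl7 in cells with 2000 to 4000 genes, or Cxcl16, Ccl7 and Il6 with a pseudocount of 5. Scar cells against activated Tcf21-traced cells gave 1 of 10 higher, Ccl7 (1.23), against 1.11%, and 3 of 10 lower, Cxcl16 (-1.49), Csf1 (-1.31) and Il6 (-1.29), against 13.2%. Among widely detected genes 1.91% were higher and 42.7% lower, so the 3 of 10 lower lay below that share. Without the 6 shallow scar cells, Cxcl1 and Ccl7 were higher and Cxcl16 and Csf1 were lower. With the log2 of the mean TPM, Cxcl16 (1.45) and Il6 (0.79) were above 0 in this pair, and in cells with 2000 to 4000 genes Cxcl1, Ccl2, Ccl7 and Ccl11 were higher and none was lower, with Il6 at 0.46. Ccl7 did not pass 1 log2 unit in this pair with 5 of the 8 settings, including medians and the log2 of the mean TPM.

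**Figure D3:**
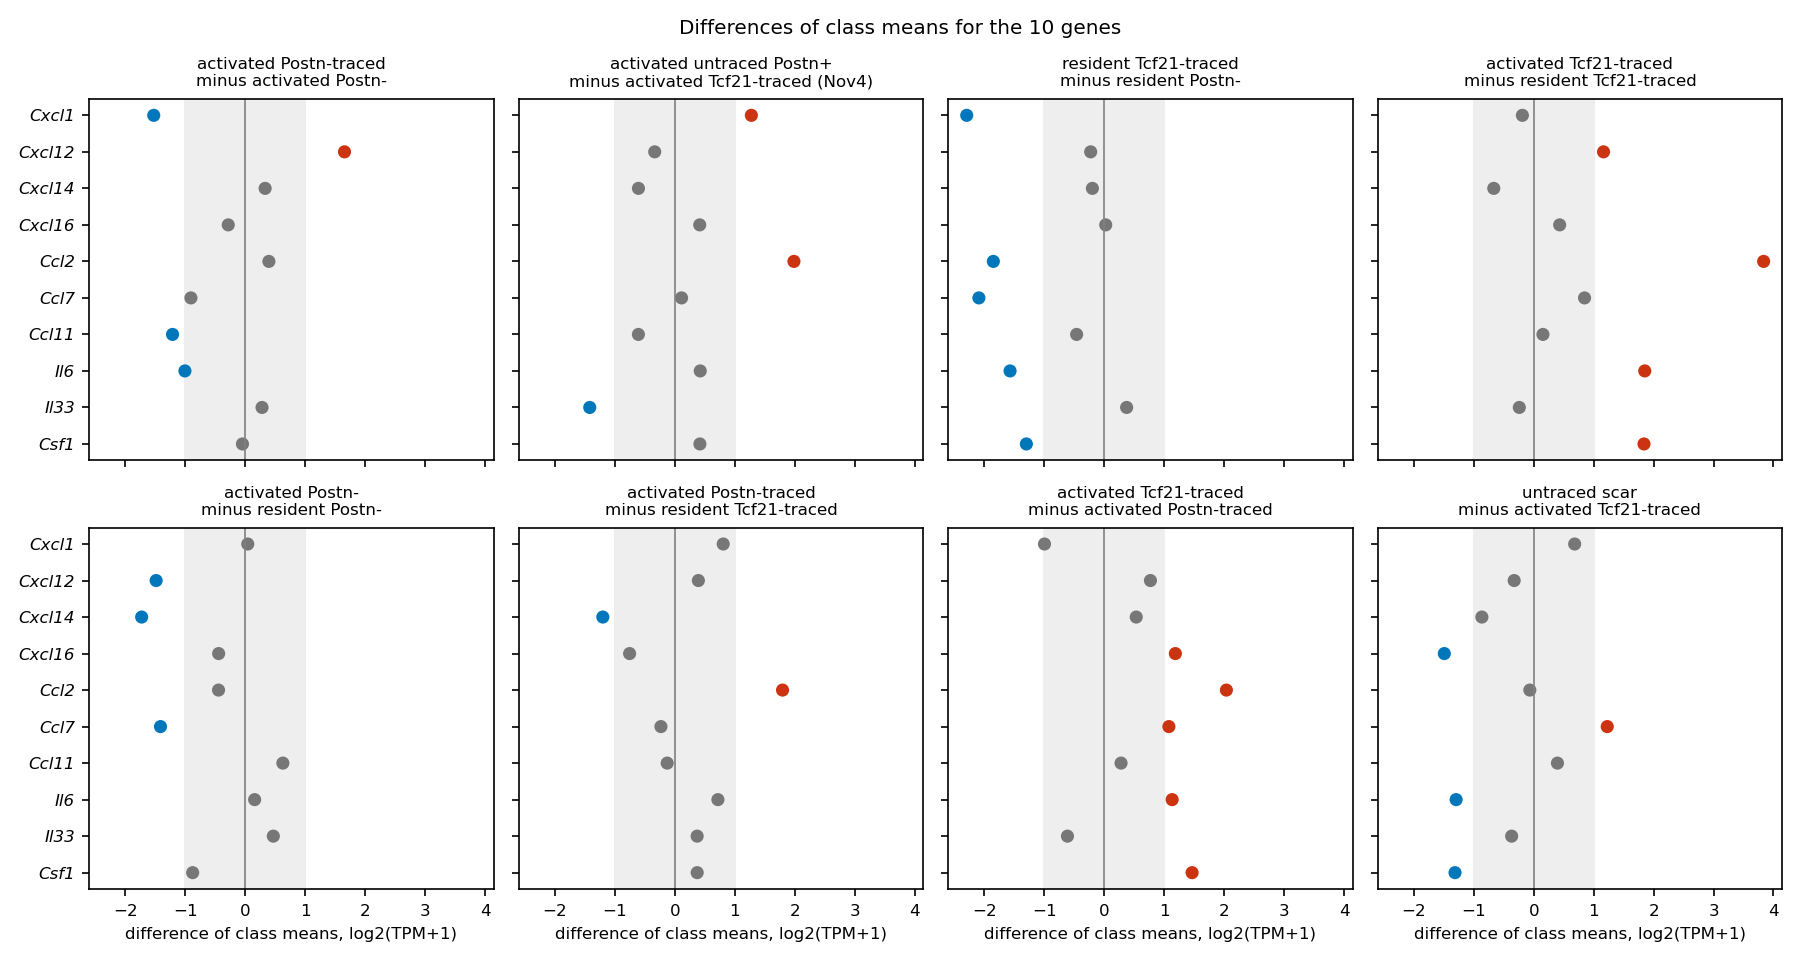
Each panel shows 1 comparison, with the difference of class means in log2(TPM+1) on the horizontal axis and the 10 genes on the vertical axis; red points are above 1, blue points below -1 and the grey band lies between. Ccl2 in activated minus resident Tcf21-traced cells lies farthest out, at 3.84.

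Most other ligands were sparse. Of 9 further CXC ligands in the table, Cxcl2 and Cxcl5 were above 5 TPM in at least 25% of cells of a class, both in Postn-traced cells (25.9% and 29.6%). Both were higher there than in activated Postn- cells, by 1.69 and 1.67 log2 units, and 2 of 9 lies between the 16.7% of all genes and the 42.3% of widely detected genes that were higher in this pair. Of 11 other chemokines, Ccl19 was detected in 58.3% of resident Postn- and 41.2% of resident Tcf21-traced cells and in 12.5% to 25% of cells of the infarct classes, and Cx3cl1 reached 33.3% in Postn-traced cells. Of 18 other cytokines, Mif was the widest, in 70.3% of all cells, and Il15 and Tslp also reached 25% of a class. Against activated Postn- cells of the same capture, Postn-traced cells had Mif higher by 2.49 log2 units and no other gene of this list past 1, so that 1 of 18 was higher, below both shares given for this pair.

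Signalling receptors of several ligands were nearly undetected. Cxcr4 was detected in 2 of 185 cells, Il1rl1 in 2, Csf1r in 5 and Ccr2 in 1, and Ccr3 is not listed. The atypical Cxcl12 receptor Ackr3 was detected in 86 cells, with a mean of 6.19 in activated Postn- and 2.53 in Postn-traced cells, the reverse of the order of Cxcl12 in this capture. Il6st, which encodes gp130, was detected in 100 cells but Il6ra in 19. Of 20 receptors and binding proteins in the table, 12 reached 25% of a class. They were Cxcr2, Ackr3, Ackr4, Il6ra, Il6st, Il1r1, Il1rap, Osmr, Lifr, Il11ra1, Tnfrsf1a and Tnfrsf1b. Of the 20, 3 were higher (Il6st, Osmr, Tnfrsf1a) and 3 lower (Ackr3, Il6ra, Lifr) in Postn-traced than in activated Postn- cells, against 16.7% and 2.35% of all genes and 42.3% and 5.86% of widely detected ones. Cxcr2, taken as a neutrophil marker, was detected in 58 cells at low values, and the other neutrophil gene in the table, Csf3r, in 3.

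Proteases and syndecans release or bind these ligands. Of 6 such genes, Adam10, Sdc1 and Sdc4 were higher in activated than in resident Tcf21-traced cells and none was lower (median difference of the list 1.31). In this pair 16.9% of all genes and 47.7% of widely detected genes were higher, and 3 of 6 is near the latter share. Adam17 and Mmp2, which also reached 25% of a class, were within 1 log2 unit there. Within the capture Nov4, Adam10, Sdc4 and Mmp2 were lower in untraced Postn+ than in Tcf21-traced cells and none was higher (median difference -0.88). In that pair 3.34% of all genes and 9.38% of widely detected genes were lower. Sdc1 was higher and Dpp4 lower in Postn-traced than in activated Postn- cells, each 1 of 6, against 42.3% and 5.86% of widely detected genes. Adam10 and Adam17 were higher in resident Tcf21-traced than in resident Postn- cells and none was lower. That is 2 of 6 higher, against 8.65% of all genes and 23.3% of widely detected ones. In activated against resident Postn- cells, which cross captures, Adam10, Adam17, Dpp4 and Sdc4 were higher and none was lower (median difference 1.44). That is 4 of 6, against 10.3% and 29%. The next list held 15 regulators of the NF-kB, C/EBP and STAT3 pathways. Nfkb1, Nfkbiz, Bcl3 and Ier3 were higher and Rela, Zfp36, Socs3 and Irf1 lower in activated than in resident Tcf21-traced cells. In that pair 2.65% of all and 6.21% of widely detected genes were lower. In the first comparison 4 of these 15 were higher (Rela, Tnfaip3, Stat3, Ier3) and 5 lower (Zfp36, Socs3, Cebpd, Irf1, Bcl3), against 42.3% and 5.86% of widely detected genes. Nfkb2, Nfkbia and Cebpb, which also reached 25% of a class, were within 1 log2 unit in both.

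Genes of the immediate early and heat shock response can be induced by tissue dissociation. Among them Fos had a mean of 11.82 in resident Tcf21-traced, 12.41 in resident Postn-, 10.87 in activated Postn-, 10.07 in Postn-traced and 9.51 in activated Tcf21-traced cells. Of the 10 genes of this list, 7 were lower and none higher in activated than in resident Tcf21-traced cells (Fos, Fosb, Jun, Junb, Egr1, Ier2 and Dusp1), 4 were lower in Postn-traced than in activated Postn- cells (Junb, Egr1, Ier2 and Dusp1), and 4 were lower in resident Tcf21-traced than in resident Postn- cells (Fosb, Junb, Atf3 and Ier2). The shares of all genes that were lower in these pairs were 2.65%, 2.35% and 6.55%, and those of widely detected genes 6.21%, 5.86% and 14.6%. The difference of Cxcl1 in them was -0.19, -1.53 and -2.29. In Postn-traced against resident Tcf21-traced cells 8 of 10 were lower, against 2.51% of all genes, with Cxcl1 at 0.81, and in activated against resident Postn- cells 6 were, against 5.2%, with Cxcl1 at 0.0413. Against activated Tcf21-traced cells, untraced Postn+ cells had 1 of the 10 lower (3.34% of all genes) and Cxcl1 at 1.28, and scar cells had 2 higher (1.11%) and Cxcl1 at 0.68. Activated Tcf21-traced against Postn-traced cells had 1 of the 10 lower, Egr1 (6.14% of all genes), and Cxcl1 at -0.997. Hspa1a and Hspa1b were low, at 0.80 and 0.57 over all cells. The cells were freed by collagenase digestion before capture, and the part of this response in the chemokine values was not tested.

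Cxcl1 varied with this list from cell to cell. Its r with the mean of the 10 dissociation genes was 0.41 in the capture Jul24 (33 cells), 0.59 in Jul29 (57 cells), 0.64 in Nov4 (63 cells) and 0.64 in Nov11 (32 cells). In Nov11 it was 0.19 without the 7 shallow cells. The 3 genes whose pattern was most like that of Cxcl1, of 5274 detected in at least 20% of infarct cells, were Fosb, Zfp36 and Btg2, with a mean r over the 3 infarct captures of 0.65, 0.61 and 0.58. Fosb belongs to the list of dissociation genes and Zfp36 to that of NF-kB regulators. Cells of a capture share its depth and handling, and these r values carry no p.

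**Figure D4:**
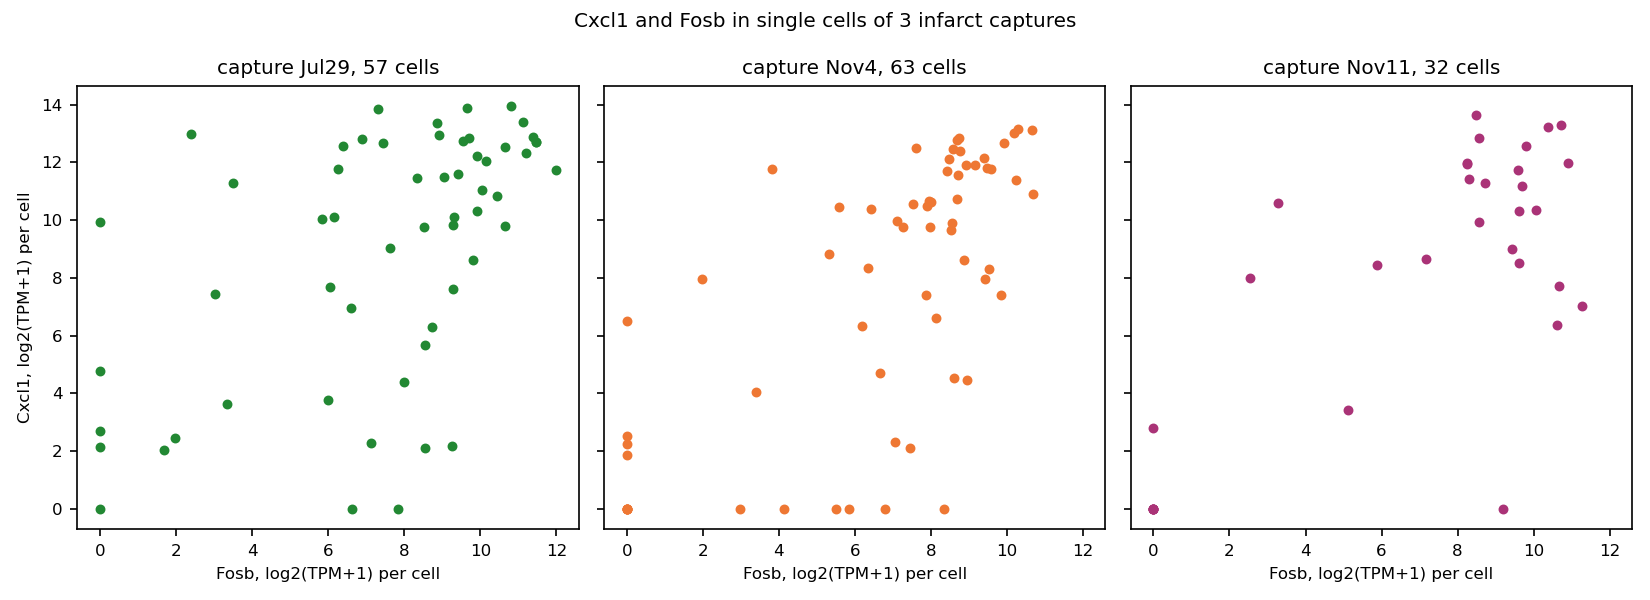
Each point is 1 infarct cell, with Fosb on the horizontal and Cxcl1 on the vertical axis, both in log2(TPM+1), for 3 captures. Cells with Fosb at 0 mostly have low Cxcl1 (r = 0.54, 0.69 and 0.74 from left to right), and in Nov11 the r fell to 0.37 without the 7 shallow cells, 5 of which lie at the origin.

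Within captures, Cxcl1, Ccl2, Ccl7 and Il6 made up the 6 pairs of members with the highest mean r. Cxcl1 and Il6 had r = 0.45 in Jul29, 0.38 in Nov4 and 0.53 in Nov11. Ccl2 and Ccl7 had r = 0.38, 0.41 and 0.36, and were detected together in 15 of the 32 Nov4 cells with Ccl2. Ccl2 and Il6 had r = 0.33, 0.29 and 0.56, and Cxcl1 and Ccl2 had r = 0.32, 0.47 and 0.35. In the resident capture Cxcl1 and Il6 had r = 0.02, Cxcl1 and Ccl7 had 0.34, and Ccl7 and Il6 had 0.30. Ccl2 was detected in only 4 of 33 cells there, with r = 0.27 for Il6, 0.13 for Ccl7 and -0.02 for Cxcl1. Over the infarct captures, Cxcl1 with Ccl7 and Ccl7 with Il6 had a mean r of 0.27 and 0.22. Pairs with Cxcl14 had no mean r, since Cxcl14 was 0 in all cells of Nov11. The other pairs had a lower mean r, led by Cxcl12 with Csf1 (0.20). Of the infarct captures, some were higher in Nov11 alone, such as Cxcl1 with Cxcl12 (0.58) and Il6 with Il33 (0.55). In the resident capture these pairs had r = 0.27 and 0.41. In such sparse data a weak correlation is no finding.

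**Figure D5:**
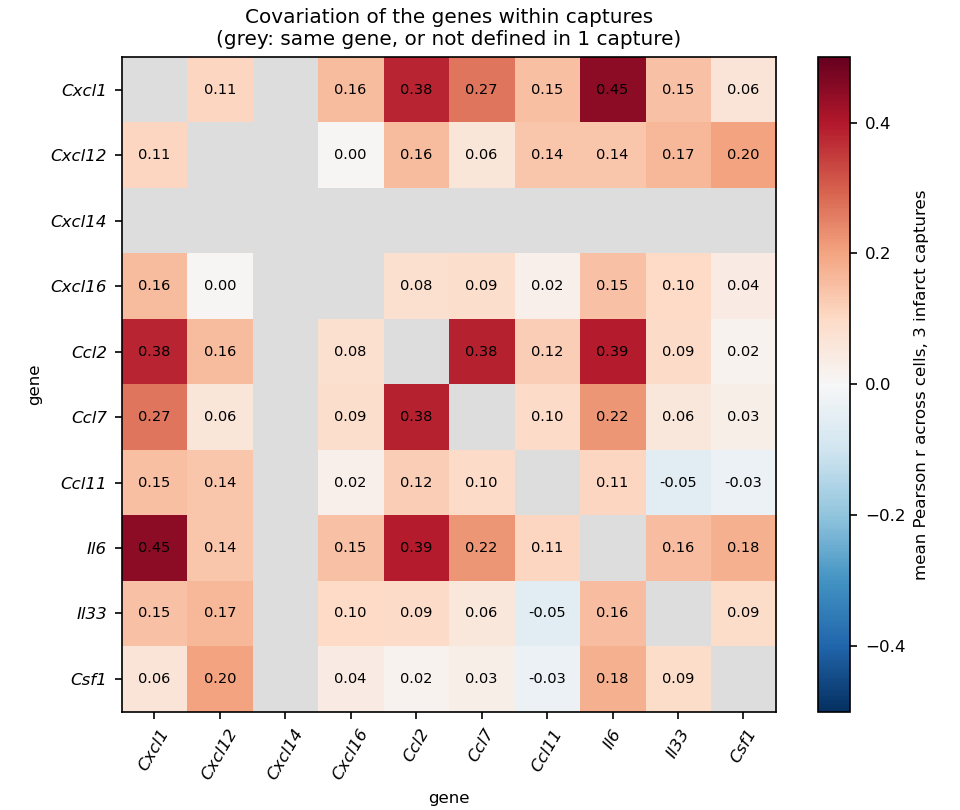
Colour and number give the mean over 3 infarct captures of the Pearson r between 2 genes across cells; grey marks a gene with itself or a value not defined, since Cxcl14 was 0 in all cells of Nov11. The largest value is that of Cxcl1 and Il6, 0.45.

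The genes most like the other members, by the same measure, included several known from inflamed stroma. For Ccl2 they were Ptgs2, the inducible cyclooxygenase (mean r = 0.42), Samhd1 (0.39) and Il6 (0.39). For Ccl7 they were Ptgs2 (0.39), Ccl2 (0.38) and Tnfaip6 (0.38). For Il6 they were Irf1 (0.49), Cxcl1 (0.45) and Myc (0.45). Cxcl12 was most like the neighbouring membrane protein genes Tmem176a (0.51) and Tmem176b (0.46), followed by Clk4 (0.41). For Cxcl16 they were Lsp1 (0.39), Igsf3 (0.35) and Bicc1 (0.35), for Il33 Nup54, Ly6a and Por (each 0.35), and those for Csf1 included Psmd14 (0.37) and Fas (0.35). Cxcl14 and Ccl11 were in too few cells for this measure.

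Depth moved with some members. The r with the number of detected genes was highest for Cxcl1 in Nov11, at 0.66, and was 0.24 there without the 7 shallow cells, -0.11 in Jul29 and -0.01 in Nov4. For Csf1 it was 0.04 in Jul29, 0.36 in Nov4 and 0.36 in Nov11. With Postn, Ccl2 had r = 0.02 in Jul29, 0.10 in Nov4 and -0.54 in Nov11, and Il6 had -0.10, 0.13 and -0.41, so that the relation of these genes to Postn differed between captures.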

How the data were processed

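Single cells were captured on the Fluidigm C1 system and their RNA was amplified by SMARTer chemistry, with Nextera libraries. The authors deposited log2 values of TPM+1 per cell, and the submitters' processing notes name mm10, Bowtie 1.0.0 and eXpress 1.5.1; the annotation is not given in the sources used here. Converted back, each cell sums to between 999257 and 1000000, as TPM does. Class values are means over cells, with the pseudocount of 1 that was deposited. Differences were not tested, since a class stands for 1 sample.

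The members, gene lists and comparisons were chosen with earlier results of these data known. Named list genes were above 5 TPM in at least 25% of cells of a class of 10 or more cells, or receptors named in advance; the 3 most alike genes came from the mean Pearson r over the 3 infarct captures. Shares have exact 95% Clopper-Pearson intervals. Alternatives changed 1 choice at a time: averaging, pseudocount, centring, cells left out, gene filters, the minimum for detection and Spearman's rho. A difference of means was tried on simulated data in separate code, so the code that gave the values here was not itself tested. Coordinates and promoters are from RefSeq (GRCm38.p6), and 3 columns without a sample were not used. The work used Matplotlib 3.10.9, SciPy 1.17.1, NumPy 2.4.6 and pandas 2.3.3 under Python 3.11.15.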

Additional observations from a re-analysis of the deposited data

Results flagged for a closer look

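Cxcl12 went in opposite directions after MI in the Tcf21-traced and the Postn- cells. It was higher by 1.16 log2 units in activated than in resident Tcf21-traced cells, and the difference between activated and resident Postn- cells was -1.49, or -0.83 with the log2 of the mean TPM. The difference in Tcf21-traced cells did not pass 1 log2 unit with medians or with a pseudocount of 5. The difference between these contrasts was not tested, each class counts as 1 sample, and both contrasts cross captures. In the main setting, only Cxcl12 of the 10 genes passed 1 log2 unit in opposite directions in this pair of contrasts. Ccl2 and Csf1 also did so in cells with 2000 to 4000 genes and without cells holding 3 markers of another type. Ccl7 also did so with centring. Cxcl12 did not with the log2 of the mean TPM, where Ccl11 did, or with medians, where Cxcl16 and Il33 did. With a pseudocount of 5 no gene did. The share of all genes that did so was not computed.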

How the results depend on the processing

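Counts of members past 1 log2 unit depended on the processing: of 132 recomputed counts over the 8 comparisons, here numbered in the order of the text, 81 stayed within 1.5 times the main count and 51 did not. With class values as log2 of the mean TPM plus 1, the counts became 0 higher (from 2) and 4 lower (from 1) in comparison 2, 2 higher (from 0) in comparison 5, 2 higher (from 1) and 3 lower (from 1) in comparison 6 and 2 higher (from 1) and 1 lower (from 3) in comparison 8. With medians over cells, the counts became 2 higher (from 1) and 1 lower (from 3) in comparison 1, 0 lower (from 1) in comparison 2, 2 higher (from 0) and 3 lower (from 5) in comparison 3, 1 lower (from 0) in comparison 4, 1 higher (from 0) in comparison 5, 0 lower (from 1) in comparison 6, 3 higher (from 5) and 1 lower (from 0) in comparison 7 and 0 higher (from 1) in comparison 8. With a pseudocount of 0.1, the counts became 1 lower (from 0) in comparison 4, 1 higher (from 0) in comparison 5, 3 higher (from 1) and 2 lower (from 1) in comparison 6 and 2 lower (from 0) in comparison 7. With a pseudocount of 5, the counts became 1 lower (from 3) in comparison 1, 1 higher (from 2) in comparison 2, 1 lower (from 3) in comparison 5, 0 lower (from 1) in comparison 6, 2 higher (from 5) in comparison 7 and 0 higher (from 1) and 0 lower (from 3) in comparison 8. With each cell centred on its median detected gene, the counts became 1 lower (from 3) in comparison 1, 3 higher (from 1) and 0 lower (from 1) in comparison 6, 1 lower (from 0) in comparison 7 and 0 higher (from 1) and 6 lower (from 3) in comparison 8. Without shallow cells, the counts became 2 higher (from 1) in comparison 8. This setting could change comparison 8 only, since all 7 shallow cells lay in the capture Nov11, which no other comparison used in the main setting. Its unchanged counts and differences in the other comparisons were fixed in advance and are no check of them. In cells with 2000 to 4000 detected genes, the counts became 1 lower (from 0) in comparison 4, 5 lower (from 3) in comparison 5, 0 lower (from 1) in comparison 6, 3 higher (from 5) and 1 lower (from 0) in comparison 7 and 4 higher (from 1) and 0 lower (from 3) in comparison 8. Without cells holding 3 markers of another type, the counts became 0 higher (from 2) in comparison 2, 5 lower (from 3) in comparison 5, 1 lower (from 0) in comparison 7 and 0 higher (from 1) and 5 lower (from 3) in comparison 8. With untraced Postn+ cells of 3 captures, the counts became 1 higher (from 2) and 0 lower (from 1) in comparison 2. The cause of these changes was not tested, except that centring gives genes listed at 0 the offset of their cell. It moved the median over all genes by 0.52, 0.26, 0.45, 0.50 and -0.84 log2 units in comparisons 1, 2, 4, 6 and 8. Of the 30 differences past 1 log2 unit, 15 kept their sign under the 8 settings tried in every comparison and 1, Csf1 in comparison 7, also stayed past 1. A difference of 0 was counted as not keeping the sign, and most of the rest were 0 with medians over cells. With untraced Postn+ cells of the capture added to the Postn- class, Ccl11 in comparison 1 did not pass 1, nor did Ccl2 and Il33 in comparison 2 with untraced Postn+ cells of 3 captures. With the log2 of the mean TPM, the sign turned for Ccl2 in comparison 2 (-0.0453), for Il6 in comparisons 3 (0.0268), 4 (-0.33) and 8 (0.79), and for Cxcl16 in comparison 8 (1.45). Equal counts could hold other genes: of the 30, the number that kept their sign and stayed past 1 was 13 with the log2 of the mean TPM, 16 with medians, 30 and 15 with pseudocounts of 0.1 and 5, 26 with centring, 29 without shallow cells, 24 in cells with 2000 to 4000 genes and 26 without cells holding 3 markers of another type. Il6 in comparison 8 was 0.46 in cells with 2000 to 4000 genes. Among all genes past 1 log2 unit, the share that was higher went with the log2 of the mean TPM from 87.7% to 60% in comparison 1, 60.2% to 41.1% in 2, 86.4% to 64.5% in 4, 88.8% to 64.4% in 6, 35.8% to 48.3% in 7 and 7.76% to 40.9% in 8, and with centring from 60.2% to 85.2% in 2. Of 90 shares of cells, 86 stayed in their intervals at 1 TPM, 85 at any value over 0 and 83 in cells with 2000 to 4000 genes, where Ccl2 in activated Tcf21-traced cells fell outside at 28.6%. Of the 24 most alike genes, 22 were among the 10 highest by Spearman's rho. Correlations and class means without shallow cells were chosen after the data were seen. No paired analysis was possible because no label names the mouse of a cell.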
